A study of Mus musculus with 5 samples.

Results

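A set of 10 genes chosen by symbol is described here, which is 10 of the 27998 genes in the deposited count matrices. It holds 7 matrix proteases, namely the matrix metalloproteinases Mmp2, Mmp3, Mmp13 and Mmp14 and the ADAMTS proteases Adamts1, Adamts4 and Adamts5, and 3 tissue inhibitors of metalloproteinases, Timp1, Timp2 and Timp3. Matrix metalloproteinases cut collagens, gelatin and proteoglycans outside the cell, and ADAMTS proteases cut proteoglycans such as aggrecan and versican. TIMPs bind the active site of these enzymes and block it, and TIMP3 is the TIMP known to inhibit ADAMTS proteases well. Most of these enzymes are made as inactive precursors and need activation, so a transcript level is not an activity.

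The temporomandibular joint disc is the fibrocartilage plate between the jaw condyle and the skull. The study dissociated discs of C57BL/6 mice labelled WT with Pronase and Collagenase P and sequenced single cells by 10x 3′ chemistry. Of the 5 libraries, 4 came from untreated normal discs at 3 d (newborn), 3 w (growing), 16 w (adult) and 78 w (aged) after birth. The fifth came from an injured disc: mice aged 5 weeks had the disc punctured with a 31 G needle, and it was taken at 7 weeks of age, 2 weeks after puncture. Per the study's methods the 3 d suspension pooled male and female pups and the older normal discs were male, while the sex of the injured mice is not given in the sources used here. The methods name Myh11-CreER reporter mice for the lineage work on injured discs, and the label of the injured sample gives WT. Each condition is 1 library, so no test between conditions was possible. Values are UMI counts summed over the cells of a class, given as CPM, the count per 1000000 UMIs of that class. A UMI tags 1 transcript end, so CPM needs no length correction. Intervals are exact 95% Poisson intervals and cover counting error only, not the spread between mice.

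By the GENCODE M21 annotation (GRCm38), Mmp3 lies on chromosome 9 from 7445822 to 7455975 and Mmp13 on the same chromosome from 7272514 to 7283331, both on the plus strand. Adamts1 (chromosome 16, 85793827 to 85803113) and Adamts5 (chromosome 16, 85856173 to 85901828) are also neighbours, both on the minus strand. Timp1 is on the X chromosome from 20870166 to 20874735. Of the 10 genes, 7 had a RefSeq promoter window (GRCm38.p6, 250 bases before to 50 after the start), the exceptions being Mmp2, Adamts4 and Adamts5. The stromelysin Mmp3 and the collagenase Mmp13 are textbook targets of AP-1, the Fos and Jun dimer, so the windows were searched for TGACTCA and its reverse complement TGAGTCA. Of the 7 windows, 2 held these letters, those of Mmp3 and Mmp13, against 5.20% of all 32851 windows. The letters were chosen because of these 2 genes, so the share over all windows is background and not a test of the set. The 80 bases before each start are shown because they set this pair apart from the other 5 windows, with the AP-1 letters in capitals.
Mmp13, chr9:7272434-7272513, plus strand: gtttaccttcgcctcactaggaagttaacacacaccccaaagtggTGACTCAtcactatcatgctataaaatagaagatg
Mmp3, chr9:7445742-7445821, plus strand: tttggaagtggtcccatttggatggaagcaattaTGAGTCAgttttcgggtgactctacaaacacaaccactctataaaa
The letters began 35 bases before the Mmp13 start and 46 bases before the Mmp3 start. A match is a description of these letters and not a measured binding site.

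A total of 51688 cells passed the filters, between 8467 and 14959 per library. Before the filters, the libraries held from 31585993 to 125427849 UMIs over all deposited barcodes. The injured library was the shallowest, with a median of 3299 UMIs per retained cell against 7721 to 12496 in the normal libraries. It also stood apart in content: in stromal-like cells the nuclear RNA Malat1 was at 62839 CPM against 17143 to 45388 in the normal libraries, and the predicted gene Gm26870 at 7589 CPM against 18.1 to 463. Xist, the RNA of the inactive X chromosome, was at 650.0 CPM in injured stroma and 887 CPM at 3 d, and between 0.0975 and 0.362 CPM in the other libraries. The median gene was 0.28 lower on the log2 scale in injured stroma than in the mean of 3 w and 16 w. Libraries shared 19 to 39 cell barcodes per pair, at most 0.415% of the smaller library.

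Cells were clustered without the genes of the protease pathways, and clusters were named from markers. Stromal-like cells, the fibroblasts and chondrocyte-like cells of the disc, numbered 41605 in clusters 1, 2, 3 and 9. Other named classes were endothelial-like (3435 cells), macrophage-like (1464), mural-like (1248, pericytes and smooth muscle) and synovial-like cells (1125), with at least 83 cells of each class in every library. Chemokine genes stood among the leading genes of the macrophage-like cluster, and Il6 and Ccl11 among those of the mural-like cluster. Different stromal clusters filled the libraries: at 3 d clusters 2 and 3 held 4393 and 4321 of 10858 stromal-like cells, whereas cluster 1 held 4126 of 6829 in the injured library and most stromal-like cells at 3 w, 16 w and 78 w. Stromal levels are therefore also given for clusters 1, 2 and 3, where they bear on a pooled difference.

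In the normal disc, the make-up of protease transcripts in the pooled stromal-like cells differed by stage. Mmp14 and Mmp2 led at 3 d and ADAMTS proteases at 16 w. Mmp14 and Mmp2 together made up 90.2% of the UMIs of the 7 proteases at 3 d, 49.2% at 3 w, 19.4% in the 16 w disc and 33.7% at 78 w. The 3 ADAMTS genes made up 9.55%, 48.1%, 74.7% and 58.5% at the same stages. These shares do not hold in each cluster. At 78 w Mmp2 was at 529 and 470 CPM in clusters 2 and 3, above Adamts1 at 242 and 303 CPM. In cluster 1 Mmp2 was at 52.5 CPM and Adamts1 at 239 CPM. At 16 w Mmp2 was at 298 CPM in cluster 3 and Adamts1 at 270 CPM. In the injured disc the share of Mmp14 and Mmp2 was 75.8% and that of the ADAMTS genes 20.1%. Both pooled shares of the injured disc thus lay between those of 3 d and 3 w. This does not describe each gene of the pair. In the injured disc Mmp2 was at 543 CPM and Mmp14 at 66.6 CPM. At 3 d they were at 407 and 458 CPM, and at 3 w at 296 and 58.0 CPM.

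**Figure D1:**
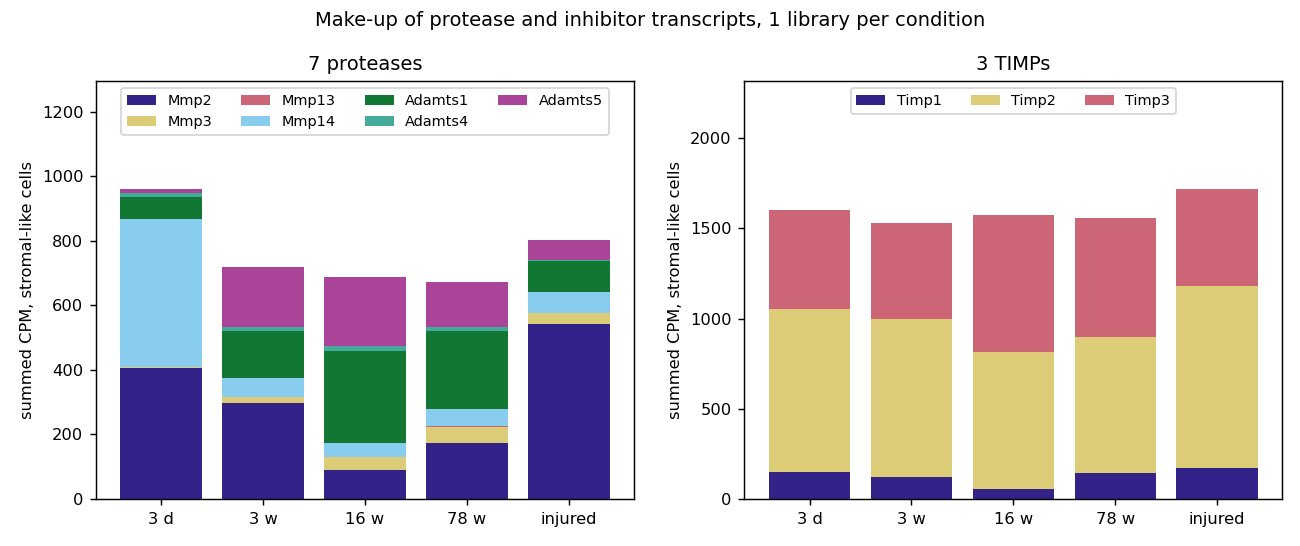
Summed CPM in stromal-like cells of each library, stacked by gene, for the 7 proteases (left) and the 3 TIMPs (right). Mmp14 and Mmp2 fill 90.2% of the protease bar at 3 d and 75.8% in the injured disc, while the ADAMTS genes fill 74.7% at 16 w.

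Mmp14, the membrane-bound MT1-MMP that activates the Mmp2 precursor and cuts fibrillar collagen, was highest in the newborn disc. In stromal-like cells its level was 458 CPM (454 to 463) at 3 d, then 58.0 (56.6 to 59.4) at 3 w, 43.8 (42.4 to 45.3) in the 16 w disc, 53.8 (52.3 to 55.3) at 78 w and 66.6 (63.6 to 69.7) in the injured disc. The newborn library was thus far above the rest, which did not approach it. The 3 d level was 8.52 times the 78 w level (8.28 to 8.78, counting error only). Clusters 1, 2 and 3 had 516, 561 and 354 CPM at 3 d and 30.5, 117 and 125 CPM at 78 w, so 3 d was the highest normal stage in each. In the injured disc Mmp14 was at 23.4 CPM in cluster 1, below all normal stages of that cluster, and at 210 CPM (194 to 227) in cluster 3, above the 3 later normal stages. Mural-like and synovial-like cells held Mmp14 as well, at 350.0 and 361 CPM at 3 d and between 69.4 and 137 CPM at the later normal stages. At 3 w, 16 w and 78 w these were 129% to 236% of the stromal level of the same library.

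Mmp2, the gelatinase that cuts denatured collagen and basement membrane, had its highest stromal level in the injured disc. It was at 407 CPM (403 to 411) at 3 d, then 296 (293 to 299) at 3 w, 89.7 (87.7 to 91.8) in the 16 w disc, 173 (170.0 to 176) at 78 w and 543 (534 to 552) in the injured disc. The injured level exceeded all 4 normal levels. It was 1.33 times the highest of them, that of 3 d (1.31 to 1.36), and 1.83 times that of 3 w (1.80 to 1.87) and 6.05 times that of 16 w (5.88 to 6.22), the stages on either side of its age. It did not reach 2-fold over the normal range. Cells with at least 1000 UMIs were also thinned to 1000 UMIs, and cells below that were left out. This kept 6525 of 6829 stromal-like cells in the injured disc and 10806 of 10858 at 3 d. After thinning, 31.8% of injured stromal-like cells held an Mmp2 UMI (30.7 to 32.9, exact binomial). The shares were 32.3% at 3 d, 22.8% at 3 w, 8.17% in the 16 w disc and 13% at 78 w. Before thinning the shares were 56.7% in the injured disc and 86.0% at 3 d, which differ in depth.

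Within the stroma, the Mmp2 level depended on the cluster. Cluster 3, led by Pi16, Clec3b and Sfrp2, had 335, 992, 298 and 470 CPM over the 4 normal stages and 1402 CPM in the injured disc. Cluster 2, led by Coch, Angptl7 and Spp1, had 508, 581, 172 and 529 CPM and 1013 CPM in the injured disc. Cluster 1, led by Chad, Cytl1 and Angptl7, had 368, 128, 44.3 and 52.5 CPM and 222 CPM in the injured disc, below its 3 d level. The injured level exceeded all normal stages in clusters 2 and 3 and not in cluster 1. The lower level at 78 w than at 3 d in the pooled stroma, 0.425 times, was present in cluster 1 and in neither of the other clusters. With clusters 1, 2 and 3 given equal weight, that ratio was 0.867.

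**Figure D2:**
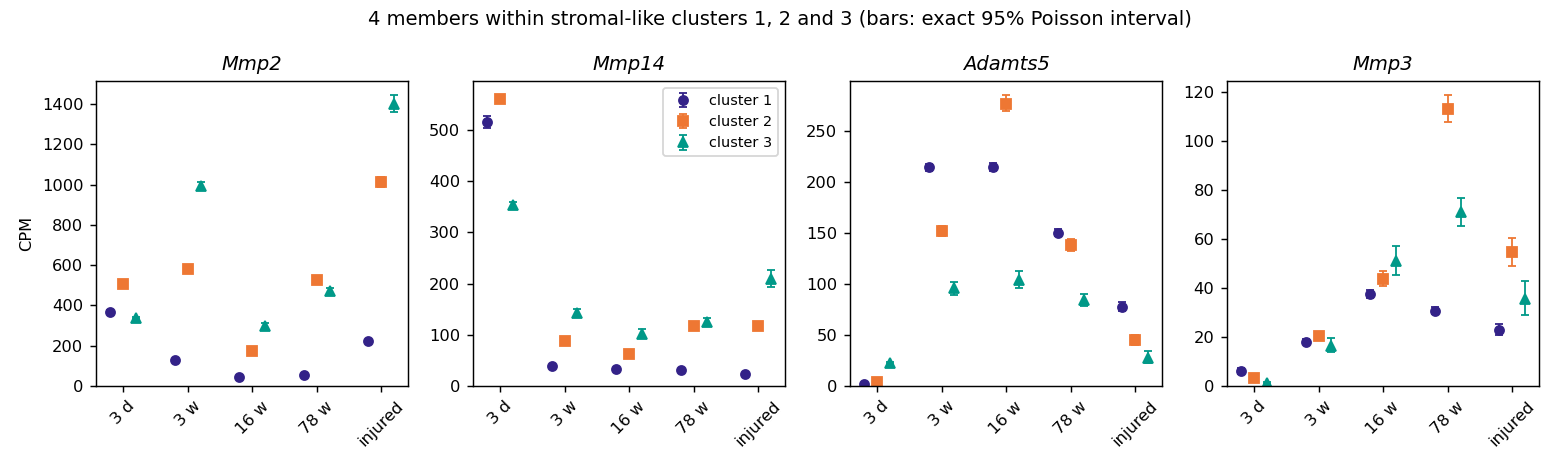
CPM of Mmp2, Mmp14, Adamts5 and Mmp3 in stromal-like clusters 1 (circles), 2 (squares) and 3 (triangles) of each library, with exact 95% Poisson intervals. Injured Mmp2 reaches 1013 CPM in cluster 2 and 1402 CPM in cluster 3 but 222 CPM in cluster 1, and Mmp14 is highest at 3 d in all 3 clusters.

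Mmp3, stromelysin 1, which cuts proteoglycans and activates other MMP precursors, had a higher pooled stromal level at each later normal stage. Stromal levels were 2.60 CPM (2.30 to 2.94) at 3 d, then 19.4 (18.6 to 20.2) at 3 w, 40.3 (38.9 to 41.7) in the 16 w disc, 49.9 (48.4 to 51.4) at 78 w and 32.2 (30.1 to 34.3) in the injured disc. The 78 w level was 19.2 times that of 3 d (16.9 to 21.8), and the injured level lay between 3 w and 16 w. After thinning, 1.40% to 2.90% of stromal-like cells at 3 w, 16 w, 78 w and in the injured disc held a UMI. At so low a level the thinning itself limits this share, which does not show how the transcript is spread over cells. Before thinning the shares were 9.89%, 10.6%, 11.2% and 7.69% in the same order, from libraries that differ in depth. At 78 w the 10 cells with the most Mmp3 UMIs held 20.7% of them, and cluster 2 had 113 CPM against 30.8 CPM in cluster 1. From 16 w to 78 w the clusters differed in direction: cluster 1 was lower at 78 w, 0.824 times its 37.4 CPM at 16 w (0.773 to 0.878), while clusters 2 and 3 were 2.59 and 1.39 times their 16 w levels. Stromal-like cells held 94.9% to 98.4% of each library's Mmp3 UMIs, beside 80.9% to 90.0% of all its UMIs.

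Mmp13, collagenase 3, which cuts type II collagen, was close to absent. All stromal-like cells together gave 1 UMI at 3 d, then 33 at 3 w, 2 in the 16 w disc, 229 at 78 w and 27 in the injured disc, or 0.0099, 0.293, 0.025, 2.53 and 0.967 CPM. The 78 w library therefore held most of the Mmp13 UMIs of the series. Over all its cells, 40 had an Mmp13 UMI and 10 of these held 76.8% of the UMIs. At 78 w cluster 2 gave 134 of the UMIs and cluster 9, led by Ibsp and Col2a1, gave 62 from 367 cells. The injured value exceeded those of 3 d, 3 w and 16 w, but its 27 UMIs came from 10 cells, of which the highest held 16. With a mean under 10 CPM, Mmp13 entered no comparison by fold.

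The sums of an immediate early list and of a mixed list with AP-1 genes did not share the order of Mmp3 over the libraries. Some single genes did over the normal stages. The 11 genes of the immediate early list include the heat-shock genes Hspa1a, Hspa1b and Dnajb1. They summed to 5647 CPM in stroma at 3 d, then 9591 at 3 w, 15240 in the 16 w disc, 9757 at 78 w and 8925 in the injured disc. The mixed list of 8 genes (Il1b, Tnf, Il6, Il1r1, Fosl1, Fosl2, Runx2 and Nfkbia) summed to 600.3, 1182, 2312, 2205 and 946 CPM. Fosl1 taken alone was at 4.32, 7.82, 15.8 and 19.2 CPM over the normal stages, the same order as Mmp3. It was highest in the injured stroma, at 34.3 CPM, unlike Mmp3. Runx2 and Il1r1 of the same list were also higher at each later normal stage, while Il6, Fos, Jun and Junb were not. The remaining genes of both lists are not given singly, nor is the share of all genes with this order. These matches are therefore a description only. Immediate early genes respond to dissociation, and their part in the members' levels was not tested.

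Adamts5, the main aggrecanase of mouse cartilage, had the largest ratio of 3 w to 3 d among the 9 members compared in the pooled stroma. Its stromal level was 12.4 CPM (11.7 to 13.1) at 3 d, then 189 (186 to 191) at 3 w, 215 (211 to 218) in the 16 w disc, 141 (138 to 143) at 78 w and 63.6 (60.7 to 66.6) in the injured disc. The 3 w level was 15.2 times the 3 d level (14.4 to 16.1). By cluster this ratio was 104, 35.7 and 4.26 in clusters 1, 2 and 3. In cluster 3 it was larger for Mmp3, at 15.2. The injured level lay above 3 d and below the 3 later stages, 2.97-fold below 3 w (2.83 to 3.12) and 3.38-fold below 16 w (3.21 to 3.55). After thinning, 5.81% of injured stromal-like cells held an Adamts5 UMI, against 14.6% at 3 w and 15.8% at 16 w. The injured level was below 3 w, 16 w and 78 w in clusters 1, 2 and 3, where the injured disc had 77.7, 44.9 and 27.7 CPM against 215, 152 and 95.7 at 3 w. It was above 3 d in clusters 1 and 2, and in cluster 3 it was 1.23 times 3 d with an interval that included no difference (0.979 to 1.54). Synovial-like cells showed a like order, with 6.69 CPM at 3 d, 243, 158 and 233 CPM at 3 w, 16 w and 78 w and 63.5 CPM in the injured disc.

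Adamts1, which cuts versican and aggrecan and is an early response gene, had a stromal level of 69.5 CPM at 3 d, then 148 at 3 w, 284 in the 16 w disc, 241 at 78 w and 94.3 in the injured disc. The injured value again lay above 3 d and below the later stages, 3.01-fold below 16 w (2.89 to 3.14) and 1.57-fold below 3 w (1.51 to 1.64). At 78 w it was 3.47 times the 3 d level (3.37 to 3.56). By cluster, the injured disc had 95.2, 97.5 and 82.5 CPM in clusters 1, 2 and 3, against 28.8, 61.5 and 89.2 CPM at 3 d. It was therefore above 3 d in clusters 1 and 2 and not in cluster 3, and below the later stages in all 3. In cluster 2, however, it was 0.939 times 3 w, with an interval that included no difference (0.861 to 1.02). In endothelial-like cells the order differed, with 128, 699, 327 and 486 CPM at the normal stages and 443 CPM in the injured disc.

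Adamts4, aggrecanase 1, was the member with a stromal level in the injured disc past 2-fold outside the normal range. The stromal levels were 9.83 CPM (9.23 to 10.5) at 3 d, then 9.74 (9.17 to 10.3) at 3 w, 15.6 (14.7 to 16.5) in the 16 w disc, 12.1 (11.4 to 12.8) at 78 w and 3.26 (2.62 to 4.00) in the injured disc, from 91 UMIs there. The injured disc lay below all 4 normal stages, 2.99-fold below the lowest (2.41 to 3.74). Adamts4 is sparse in stroma: its mean over libraries, 10.1 CPM, was just past the 10 CPM needed to enter the comparison, and after thinning 0.276% of injured stromal-like cells held a UMI against 0.722% to 1.41% of normal ones. By cluster, the injured level was 2.50 CPM in cluster 1 against 4.56 to 13.6 CPM, 4.13 in cluster 2 against 11.0 to 20.3 CPM, and 6.45 in cluster 3 against 9.80 to 40.0 CPM. It was thus the lowest in each, but past 2-fold in cluster 2 alone (2.66-fold, 1.81 to 4.05). In cluster 1 it was 1.82-fold below the lowest stage (1.32 to 2.57), and in cluster 3 1.52-fold, where the interval (0.973 to 2.51) included no difference. Summed mural markers in the stroma were 126 CPM in the injured disc and 161 to 244 CPM in the normal libraries. Their part in the difference was not tested. The mean of Adamts4 dropped under 10 CPM, and the comparison was lost, with cells thinned to 1000 UMIs (9.98 CPM), with clusters made without integration (9.83 CPM) and with libraries scaled by the median ratio over genes (9.94 CPM).

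Mural-like cells had the highest Adamts4 level of the 5 classes in every library. It was 60.3 CPM at 3 d, then 847 (812 to 882) at 3 w, 647 in the 16 w disc, 802 at 78 w and 269 (215 to 332) in the injured disc. At 3 w these cells were 2.89% of the library and held 53.3% of its Adamts4 UMIs, and at 16 w and 78 w they held 48.6% and 52.4%. In the injured library they were 1.37% of the cells and held 36.1%, and at 3 d 2.31% and 12.6%. Their level at 3 w was 14 times that at 3 d (12.1 to 16.4), and the injured level was 3.15-fold below 3 w (2.54 to 3.95) and 2.41-fold below 16 w (1.94 to 3.03) while remaining above 3 d. Mural-like Adamts4 was at 613% of the stromal level at 3 d and at 4158% to 8695% of it in the other libraries.

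Adamts1 and Timp3 were also highest in mural-like cells and followed a different order in the injured disc. Mural Adamts1 was at 162 CPM at 3 d, then 1016 at 3 w, 946 in the 16 w disc, 1233 at 78 w and 1222 in the injured disc, which was 1.20 times 3 w (1.08 to 1.34). Mural Timp3 was at 733, 3761, 2563, 2702 and 1429 CPM, so that the injured disc was 2.63-fold below 3 w (2.40 to 2.90) and 1.79-fold below 16 w (1.63 to 1.98). In the mural-like cells of the injured disc, Adamts1 was therefore within the range of 3 w to 78 w while Adamts4 and Timp3 lay between 3 d and the later stages. The summed immediate early list of mural-like cells was at 5370 CPM at 3 d, then 12002 at 3 w, 21980 in the 16 w disc, 21372 at 78 w and 11170 in the injured disc. The part of these genes in these orders was not tested. The 8 mural markers summed to 8334 CPM in injured mural-like cells, below the 10058 to 15859 CPM of the normal stages, with none at 0. In the same cells the 15 stromal markers summed to 19926 CPM against 10095 to 15190 CPM, and the 7 synovial markers to 2460 CPM against 249.9 to 2005 CPM, with 2 of the synovial markers at 0. The part of these markers in the mural levels of the members was not tested.

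**Figure D3:**
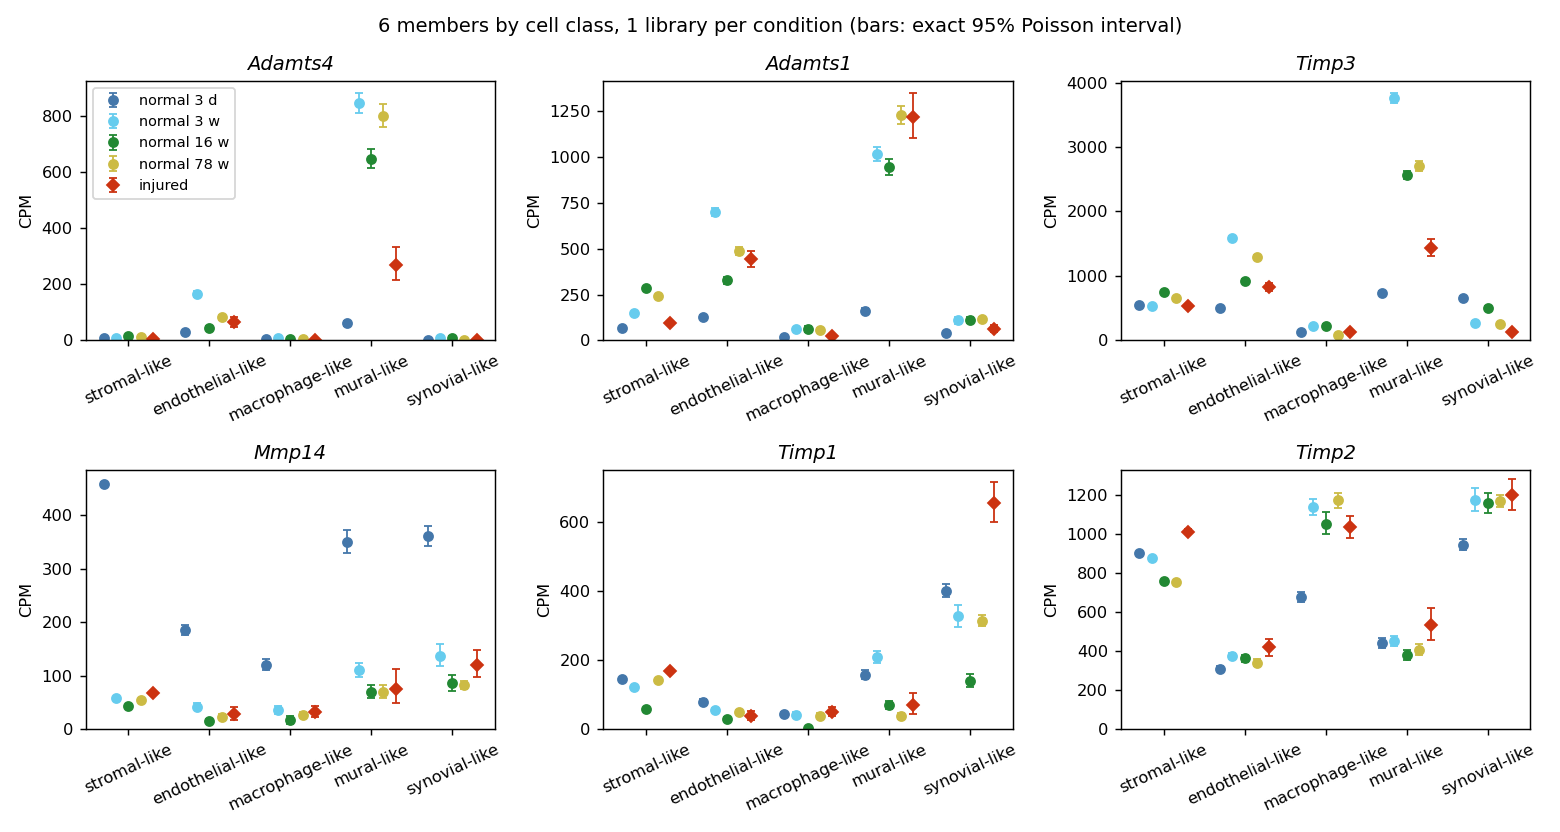
CPM of Adamts4, Adamts1, Timp3, Mmp14, Timp1 and Timp2 in the 5 cell classes, with 1 point per library (diamonds, injured) and exact 95% Poisson intervals. Adamts4 stands at 647 to 847 CPM in mural-like cells from 3 w to 78 w and at 269 CPM in the injured disc, and Timp1 reaches 657 CPM in injured synovial-like cells.

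Timp2, which with MMP14 also forms the complex that activates the MMP2 precursor, was the most abundant member in stroma at 904 CPM at 3 d, then 879 at 3 w, 761 in the 16 w disc, 753 at 78 w and 1012 in the injured disc. The injured level was the highest in the pooled stroma, 1.12 times that of 3 d (1.10 to 1.13). By cluster it was above all normal stages in cluster 2 alone, at 1489 CPM against 985 to 1254 CPM. In cluster 1 it was at 755 CPM against 810.2 at 3 d, and in cluster 3 at 1529 CPM against 1819 at 78 w. Timp2 was also the leading inhibitor of macrophage-like cells, at 678 CPM at 3 d, 1138, 1054 and 1173 CPM at the later stages and 1036 CPM in the injured disc, which is 75.0% to 156% of the stromal level of the same library.

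Timp1, the inducible TIMP, had stromal levels of 147 CPM (144 to 149) at 3 d, then 122 (120.0 to 124) at 3 w, 56.7 (55.1 to 58.4) in the 16 w disc, 143 (141 to 146) at 78 w and 170 (165 to 175) in the injured disc. The 16 w library was the lowest and the injured disc the highest, at 1.16 times the 3 d level (1.12 to 1.20) and 2.99 times the 16 w level (2.87 to 3.12). Among the named classes, synovial-like cells had the highest Timp1 level in every library. It was 401 CPM at 3 d, then 327 at 3 w, 140.3 in the 16 w disc and 315 at 78 w. In the injured disc it was 657 CPM (601 to 717), 1.64 times the highest normal level (1.48 to 1.81). Stromal-like cells held 81.9% to 90.5% of each library's Timp1 UMIs. By stromal cluster, injured Timp1 was at 155 CPM in cluster 1, 1.09 times 3 d (1.03 to 1.15), at 139.5 CPM in cluster 2, below the 144 CPM of 3 d, and at 218 CPM in cluster 3, 1.27 times 3 w (1.16 to 1.39). Stromal cluster 9, a small one, also had its highest level in the injured disc, 542 CPM against 192, 215 and 350.0 CPM at 3 w, 16 w and 78 w, and had only 9 cells at 3 d. Timp1 is X-linked, and the injured library differed in Xist from those of 3 w, 16 w and 78 w, whose part in these levels was not tested.

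Timp3, the matrix-bound TIMP, had stromal levels of 551 CPM at 3 d, then 531 at 3 w, 757 in the 16 w disc, 663 at 78 w and 535 (527 to 544) in the injured disc, which is 1.01 times the 3 w level (0.990 to 1.03). By cluster the injured disc was below all normal stages in clusters 2 and 3, at 381 and 408 CPM against at least 440.4 and 643 CPM, and within their range in cluster 1. In synovial-like cells it was at 663, 264, 498 and 250 CPM at the normal stages and at 136 CPM (111 to 165) in the injured disc, 1.83-fold below the lowest of them (1.5 to 2.26). Injured synovial-like cells thus combined the highest Timp1 and the lowest Timp3 of the 5 libraries.

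**Figure D4:**
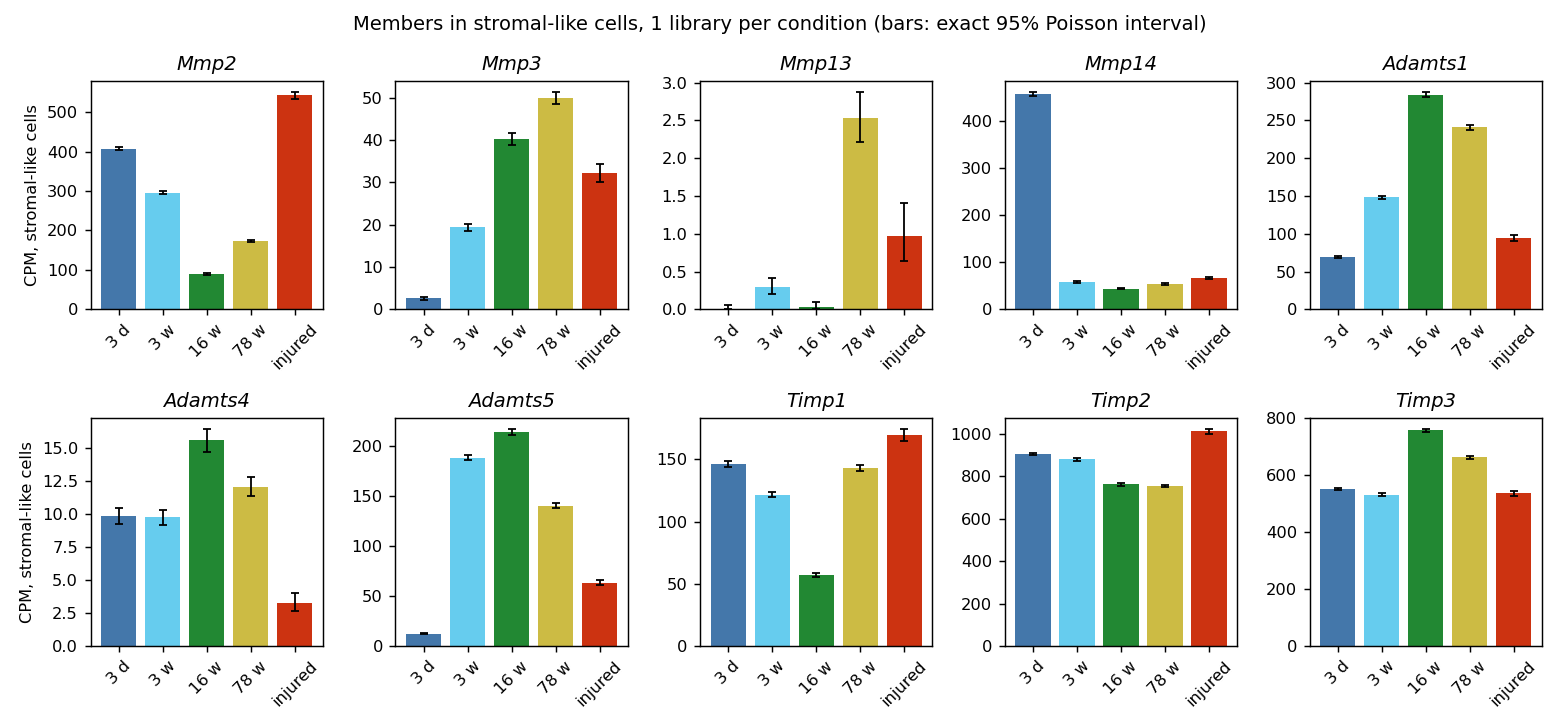
CPM of each of the 10 members in stromal-like cells by library, as bars from 0 with exact 95% Poisson intervals and a separate axis for each gene. Mmp14 is at 458 CPM at 3 d and at most 66.6 CPM elsewhere, Adamts5 at 12.4 CPM at 3 d and 63.6 CPM in the injured disc, and Mmp2 is highest in the injured disc at 543 CPM.

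Counted over the set, 9 of the 10 members reached a mean of 10 CPM in stroma and could be compared with the 4 normal stages. None was 2-fold above the highest normal stage, where 0.893% of 7507 genes were, and 1, Adamts4, was 2-fold below the lowest, where 1.04% were. Without the 2-fold limit, Mmp2, Timp1 and Timp2 lay above the whole normal range (3 of 9, against 11.6% of genes) and Adamts4 below it (1 of 9, against 32.5% of genes). The stages 3 w and 16 w lie on either side of the age of the injured disc, so their range was also used. None of the 9 was 2-fold above it (2.89% of genes) and Adamts4 and Adamts5 were 2-fold below it (2 of 9, against 5.79%). This range does not remove a difference in sex make-up. Stromal Xist was at 650.0 CPM in the injured disc and 887 CPM at 3 d, but at 0.0975 and 0.362 CPM at 3 w and 16 w. Between 78 w and 3 d, 3 of 9 were at least 2-fold higher at 78 w (Mmp3, Adamts1 and Adamts5, against 15.3% of genes) and 2 of 9 at least 2-fold lower (Mmp2 and Mmp14, against 11.1%). All 5 were proteases. In the pooled stroma the 3 TIMPs were at 0.978 (Timp1), 0.833 (Timp2) and 1.20 times (Timp3) their 3 d level. By cluster, Timp2 at 78 w was 0.626, 1.27 and 2.10 times its 3 d level in clusters 1, 2 and 3. Adamts4 was 1.05, 1.85 and 3.76 times its 3 d level there. In cluster 3 both were thus past 2-fold, unlike in the pooled stroma. The pooled median log2 ratio of 78 w to 3 d was 1.02 over the 6 proteases compared and -0.03 over the TIMPs, beside 0.00 over all genes. For the injured disc against the mean of 3 w and 16 w it was -0.54 over these proteases and 0.30 over the TIMPs, beside -0.28 over all genes.

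**Figure D5:**
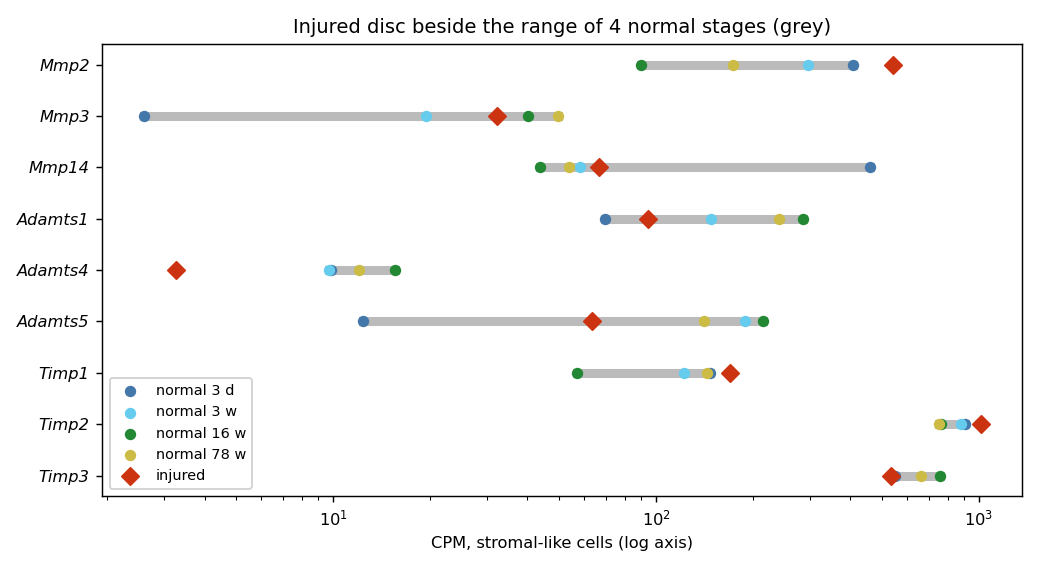
CPM on a log axis in stromal-like cells of the 9 members compared, with the 4 normal stages as circles on a grey bar for their range and the injured disc as a diamond. The injured diamond lies right of the bar for Mmp2, Timp1 and Timp2 and left of it for Adamts4, at 3.26 CPM against a lowest normal level of 9.74.

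In the other classes, Mmp2 was the member past 2-fold above the normal range. It was called in endothelial-like cells (1 of 8 members compared, against 0.771% of genes) and in mural-like cells (1 of 8, against 1.39%). No member was called higher in macrophage-like (0 of 7, against 1.01%) or synovial-like cells (0 of 8, against 0.809%). None was called lower in endothelial-like (3.94% of genes), macrophage-like (2.67%), mural-like (2.82%) or synovial-like cells (5.91%). Endothelial Mmp2 was at 101, 71.7, 32.0 and 46.8 CPM at the normal stages and 203 CPM in the injured disc, 2.02 times the highest (1.70 to 2.38). Mural Mmp2 was at 106, 78.5, 29.99 and 46.5 CPM and 219 CPM in the injured disc, 2.07 times the highest (1.58 to 2.69). Both calls were lost with clusters at resolution 0.5, and 1 of them with cells thinned to 1000 UMIs. Thinning kept 289 of 375 injured endothelial-like and 103 of 116 injured mural-like cells.

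Transcripts of stromal genes were also counted in these cells. In injured endothelial-like cells Mmp2 was 37.4% of its stromal level, while the stromal genes Dcn, Fmod, Comp and Col1a1 were at 19.5% to 24.6% of theirs. In injured mural-like cells Mmp2 was 40.3% of its stromal level and the 4 stromal genes 18.3% to 33.9%. In the normal libraries Mmp2 was at 24.2% to 35.6% in endothelial-like cells, with the stromal genes at 15% to 26.9%. In normal mural-like cells Mmp2 was at 25.9% to 33.4%, with the stromal genes at 16.5% to 36.4%, and exceeded all 4 of them at 3 w alone. Mural Col1a1 was at 8278 CPM in the injured disc against 329 to 2916 CPM at the normal stages. The part of stromal RNA in the Mmp2 levels of these classes was not tested. Adamts4, Adamts1 and Timp3, in contrast, were above the stromal level in endothelial-like and mural-like cells of every library, except Timp3 in endothelial-like cells at 3 d, which was at 89.8% of it.

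Mural-like cells had more members past 2-fold with age than the stroma. The class pools pericytes and smooth muscle and was not split. Its marker Myh11 was at 192, 795, 2540 and 2439 CPM at the normal stages and 597 CPM in the injured disc. The marker Rgs5 was at 4850, 7143, 4958, 5288 and 4358 CPM in the same order. The part of these differences in the mural levels of the members, Adamts4 included, was not tested. Between 78 w and 3 d, 4 of 8 members were at least 2-fold higher at 78 w (Adamts1, Adamts4, Adamts5 and Timp3, against 16.2% of genes) and 3 of 8 at least 2-fold lower (Mmp2, Mmp14 and Timp1, against 15.4%). Against 3 w and 16 w, Mmp2 was 2-fold higher in injured mural-like cells (1 of 8, against 3.31%) and Adamts4 2-fold lower (1 of 8, against 7.34%).

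The UMIs of the 7 proteases divided by those of the 3 TIMPs gave a stromal ratio of 0.599 (0.595 to 0.604) at 3 d, then 0.470 (0.466 to 0.474) at 3 w, 0.437 (0.433 to 0.441) in the 16 w disc, 0.431 (0.427 to 0.435) at 78 w and 0.468 (0.461 to 0.476) in the injured disc. The injured ratio lay within the normal range and its interval overlapped that of 3 w. It pools stromal clusters whose members differed in the injured disc, and was not taken by cluster. Injured Mmp2 was at 222 CPM in cluster 1 and 1402 CPM in cluster 3, and injured Timp3 at 604 and 408 CPM. The pooled ratio therefore does not describe each cluster. In mural-like cells the ratio was 0.512, 0.475, 0.600 and 0.705 at the normal stages and 0.903 (0.806 to 1.01) in the injured disc, the highest of the 5 libraries. The mural sums behind the injured value were 587 protease UMIs and 650 TIMP UMIs.

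Of 73 other genes of the pathway (further MMPs, ADAMTS and ADAM proteases, other inhibitors, and cathepsins and related proteases), 28 reached a mean of 10 CPM in stroma. In the injured disc none of the 28 was 2-fold above or below the 4 normal stages, nor 2-fold outside 3 w and 16 w. Between 78 w and 3 d, 8 of the 28 were at least 2-fold higher at 78 w and 6 at least 2-fold lower, beside the 15.3% and 11.1% of all genes given above. The genes given here, Furin included, are named after their values were seen. Among the other inhibitors, Serpine2 was at 188 CPM at 3 d and 559 CPM at 78 w, and the cathepsin inhibitor Cst3 at 1048 and 5601 CPM. Adam9, the plasminogen activator Plat, the urokinase receptor Plaur, the serine protease Htra1 and the protease-clearing receptor Lrp1 were also higher, with Plat at 21.2 and 144 CPM and Htra1 at 612 and 2097 CPM. Both other MMPs compared were lower at 78 w, Mmp16 at 60.4 and 3.84 CPM and Mmp23 at 75.9 and 17.4 CPM, as were Adamts10, Adam10, Bmp1 and the collagen-cutting cathepsin Ctsk at 219 and 103 CPM. Ctsk was at 216 CPM in the injured stroma. Furin, the proprotein convertase that activates MMP14, was at 63.1 CPM there against 27.1 to 44.8 CPM at the normal stages.

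The genes whose levels were most like those of each member were sought over the 25 combinations of 5 classes and 5 libraries, by Pearson's r of log2(CPM + 10). The points share libraries, depth and background RNA, so r is given as a description. Mmp2 was closest to the collagen genes Col1a1 (0.889) and Col1a2 (0.862) and to Ssc5d (0.883). Col1a1 itself was at 9735, 12962, 938 and 908 CPM in stroma at the normal stages and at 24441 CPM in the injured disc. Like Mmp2 it was highest in the injured disc and lower at 16 w and 78 w than at 3 d and 3 w. Its order between 3 d and 3 w, and between 16 w and 78 w, was the reverse of that of Mmp2. Mmp14 was closest to Mpg (0.929), Ptov1 (0.917) and Osr1 (0.909), and Mmp3 to Prrt1 (0.830), Cys1 (0.817) and Trpm6 (0.814).

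Adamts4 was close to Tbx3 (0.961) and Akap12 (0.945). Adamts1 was closest to Hspa2 (0.951), the interleukin 1 receptor gene Il1r1 (0.936) and Zcchc14 (0.932). Adamts5 was closest to the matrix genes Fbln7 (0.961) and Pcolce2 (0.905) and to Gsn (0.908). For the inhibitors, Timp1 was closest to Rab40b (0.880), Bmp1 (0.879) and Ndrg4 (0.870), Timp2 to Pld3 (0.893), Cd44 (0.860) and Anxa4 (0.858), and Timp3 to Ttc28 (0.920), Map1b (0.910) and Yap1 (0.909).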

How the data were processed

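The 5 single-cell libraries were made with 10x 3′ v2 chemistry. The deposited matrices hold UMI counts per gene and barcode, made by the authors with Cell Ranger (3.1 in the submitters' processing notes, 4.0.0 in the file headers) on mm10. Barcodes were kept above 200 UMIs where mitochondrial transcripts made up 30% of them or less, the latter a limit set here, which leaves more cells than the study retained. Cells were integrated and clustered in Seurat 5.3.0 (R 4.3.3) at resolution 0.2, with the proteases and inhibitors left out of the features, and class names were rebuilt from markers. Scrublet (scanpy 1.11.5, Python 3.11.15) marked 0 to 2 barcodes per library and did not work as a doublet filter, so no doublets were removed.

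UMIs were summed per class and library and given as CPM with exact Poisson intervals, and ratios with exact conditional 95% intervals (scipy 1.17.1). With 1 library per condition no test was made. A gene with a mean of at least 10 CPM over the 5 libraries was called when the injured disc was at least 2-fold above the highest or below the lowest normal stage, or when 78 w and 3 d differed at least 2-fold. All 10 members were named, with the 3 genes most like each and any other pathway gene called in the injured stroma (none was). Other pathway genes were named after their values were seen. Results for 2 genes that these choices would name are not reported here. The members and lists were chosen with earlier results of these data known. Scripts were tested on simulated data. Alternatives covered cell filters, doublet scores, weighting, thinning, clustering, scaling, fold, the CPM minimum and the normal range.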

Additional observations from a re-analysis of the deposited data

Results flagged for a closer look

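Timp3, the matrix-bound inhibitor, stood out because its difference with age ran in opposite directions in different classes. The 78 w level was 2.61 times the 3 d level in endothelial-like cells and 3.69 times it in mural-like cells, and 0.376 times it in synovial-like cells. Each value compares 1 library with 1 library, and the difference between the classes was not tested. In synovial-like cells the 7 synovial markers summed to 3503 CPM at 3 d and 5792 CPM at 78 w. The 6 erythroid markers summed there to 1921 and 6.97 CPM. In mural-like cells the 8 mural markers summed to 10058 and 14859 CPM. The part of these differences in the Timp3 ratios was not tested.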

How the results depend on the processing

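No paired analysis was possible because each condition is 1 library. For the same reason no replicate could be left out. Of 90 stromal ratios of 78 w to 3 d over 10 alternatives, 89 kept their direction. The reversed ratio was that of Timp2, at 1.34 against 0.833. Of 198 injured ratios over 11 alternatives, 190 kept theirs. Among the alternatives was the removal of the 0 to 2 barcodes per library marked by Scrublet, which could hardly alter a ratio. The stromal count of members lower in the injured disc was 1. It became 0 with thinned cells, without integration, with median-ratio scaling (chosen after seeing the data) and with a fold of 3, and 2 with the range of 3 w and 16 w alone. With that range Mmp14 was 1.15 times the highest normal level and Adamts5 0.337 times the lowest, both reversed, and Adamts1 went from 1.36 to 0.637 times the lowest. The injured Adamts4 level was 0.323 to 0.471 times the lowest normal level over 11 alternatives. The count of members higher in other classes was 2. It was 1 with stricter cell filters (1000 UMIs or more, mitochondrial share of 10% or less), 1 with equal weight per cell, 1 with thinned cells, 1 without integration, 0 at resolution 0.5 and 0 with a fold of 3. The count lower there was 0, and 1 with thinned cells and 1 with a fold of 1.5. The stromal count lower at 78 w than at 3 d was 2, and 1 with a fold of 3 and 1 with stromal clusters given equal weight. With a minimum mean of 1 CPM, 1 other pathway gene (Ctss) was higher in injured stroma. The stromal ratio of protease to TIMP UMIs in the injured disc, lowest and highest normal stage was 0.483, 0.460 and 0.624 with equal weight per cell, 0.477, 0.453 and 0.625 with thinned cells, and 1.14, 0.834 and 1.38 without Timp2. The lowest and highest were 0.424 and 0.584 without integration, and the highest was 0.590 at resolution 0.5. Except where a fold, minimum or range was itself altered or Adamts4 dropped under 10 CPM, the cause was not tested. Depth limits the mural-like and synovial-like values of the injured disc most, with 116 and 189 cells.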

Other observations

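Outside the 10 members, 4 of the 73 other genes of the pathway passed 2-fold outside the 4 normal stages in injured cells other than stroma. They were named after their values were seen. In mural-like cells 39 of the other pathway genes were compared. Over all genes, 0.771% (endothelial-like) to 1.39% (mural-like) were called higher in these classes. The share called lower was 2.67% (macrophage-like) to 5.91% (synovial-like), and 3.94% in endothelial-like cells. An excess of the 4 genes over these shares was not tested. In endothelial-like cells the urokinase gene Plau was at 39.0 CPM against 3.24 to 12.6 CPM at the normal stages, while Timp4, the remaining TIMP, gave no UMI (a floor of 3 counts would be 3.54 CPM, and the exact 95% upper limit is 4.36 CPM), against 9.47 to 73.0 CPM. The protease Htra3 was at 106 CPM in injured mural-like cells against 28.03 to 45.3 CPM. Furin was at 104 CPM in injured synovial-like cells against 29.2 to 37.3 CPM. In injured stroma the cathepsin Ctss was at 7.74 CPM against at most 0.961 CPM in the normal libraries. The 8 macrophage markers summed there to 119 CPM against 13.7 to 25.7 CPM, none of them at 0, and their part in the Ctss level was not tested.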
